A study of Homo sapiens with 24 samples.

Results

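The NRF2 target genes described here are 8 stress-response genes and NFE2L2, the gene that encodes the transcription factor NRF2 itself. The 9 genes were chosen by name, and each array probe was assigned to a gene through the transcript accession given for it in the scanner output. They held 11 of the 58201 probes and 9 of the 22439 named genes. AKR1B10 and AKR1C1 had 2 probes each, HMOX1 had 1 probe printed at 10 spots, and the other members had 1 probe at 1 spot.

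Gene expression was measured on 24 one-colour Agilent arrays hybridized with RNA from PLC/PRF/5 and SNU-449, both established hepatocellular carcinoma (HCC) cell lines. Each line was left untreated (control) or received 1 ng/mL TGF-β1 (TGFβ below), 10 μM galunisertib, an inhibitor of the TGFβ type I receptor kinase, or both agents together. Treatments lasted 16 h and followed overnight serum starvation, and each of the 8 groups held 3 independent cultures. Each line stands for 1 tumor, so a difference between PLC/PRF/5 and SNU-449 is a difference between 2 cell lines.

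NRF2 is a transcription factor that is held at a low level by KEAP1, an adaptor that feeds it to a ubiquitin ligase. Oxidants and electrophiles disable KEAP1, and stabilized NRF2 then pairs with a small MAF protein on antioxidant response elements near its target genes. The targets make glutathione, regenerate thioredoxin and peroxiredoxins, degrade haem, and reduce quinones, aldehydes and ketones. In liver cancer the pathway is known for activating mutations and for raised aldo-keto reductases.

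Matches to the core of the antioxidant response element are shown because NRF2 acts on its targets through that element. Binding was not tested, and bases outside the promoter windows were not searched. RefSeq promoters of 300 bases, from 250 before to 50 after a gene start on GRCh38.p14, were found for 7 of the 9 members (not for HMOX1 and AKR1B10). They were searched on both strands for the core letters TGACNNNGC, which read GCNNNGTCA when the match lies on the other strand. GCLM held 1 match and TXNRD1 held 3, spread over 2 alternative starts, while these letters were not in the windows of the other 5 members. By promoter, the share with a match was 13.3% of all 35116 in the table, 33.3% of the 9 of the members and 27.5% of the 69 of the other pathway genes listed for this work. By gene it was 28.6% of the 7 members and 41.3% of the 46 other pathway genes with a promoter. In the lines below each sequence is written on the strand of its gene with the match in capitals.
GCLM, 34 bases before the start (chr1:93909446-93909474, minus strand): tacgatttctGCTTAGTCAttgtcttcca
TXNRD1, upstream start, 99 bases before it (chr12:104215670-104215698, plus strand): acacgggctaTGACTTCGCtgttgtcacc
TXNRD1, upstream start, 8 bases before it (chr12:104215761-104215789, plus strand): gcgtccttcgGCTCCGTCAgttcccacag
TXNRD1, downstream start, 102 bases before it (chr12:104286920-104286948, plus strand): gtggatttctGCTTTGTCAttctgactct

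All levels below are log2 of the processed signal of a probe over the 75th percentile of all spots of the array, so that 0 is a signal equal to that percentile. Such a level can be compared between arrays for 1 probe but not between probes. Signals under 5.70% of the percentile, a log2 level of -4.13, were set to that floor. The 75th percentile ranged from 145 to 262 intensity units over the arrays. The 145 was that of PLC/PRF/5 control replicate 1, and all other arrays were at 195 or more. Between 41.6% and 49.6% of probes were called well above background by the scanner software. Of 9 hepatocyte markers, all were well above background on all 12 PLC/PRF/5 arrays and 4 were on all 12 SNU-449 arrays, with APOB, TF and HNF4A on none of the latter. The hepatocyte marker FGB was higher in SNU-449 (3.80 to 4.36) than in PLC/PRF/5 (1.21 to 2.17). Of 6 fibroblast markers, 1 was well above background on all PLC/PRF/5 arrays and 4 were on all SNU-449 arrays. The 1 in PLC/PRF/5 was PDGFRB, at -0.27 to 1.43 there and -3.12 to -0.56 in SNU-449. Of 4 leukocyte markers with a probe, 1 was on all PLC/PRF/5 arrays and 0 on all SNU-449 arrays. Of 4 endothelial markers, 1 was on all arrays of each line. Replicate 1, 2 and 3 of every group lay on slide 1, 2 and 3, and the arrays with TGFβ filled the second row of each slide, so that the row and TGFβ cannot be told apart. The arrays without galunisertib lay in column 1 (PLC/PRF/5) or 3 (SNU-449) of a slide and those with it in column 2 or 4, so that the column cannot be told apart from galunisertib or from the line either.

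NFE2L2 itself gave no measurable level. The 1 probe assigned to it was well above background on 0 of 24 arrays, with signals from -7.24 to 4.43 intensity units in PLC/PRF/5 and from -6.20 to 6.01 in SNU-449. It was therefore not tested in any comparison, and its transcript is not described further. A probe without a RefSeq or LNCipedia name was assigned to no gene, so further probes of a member could be among the 16378 unnamed ones.

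**Figure D1:**
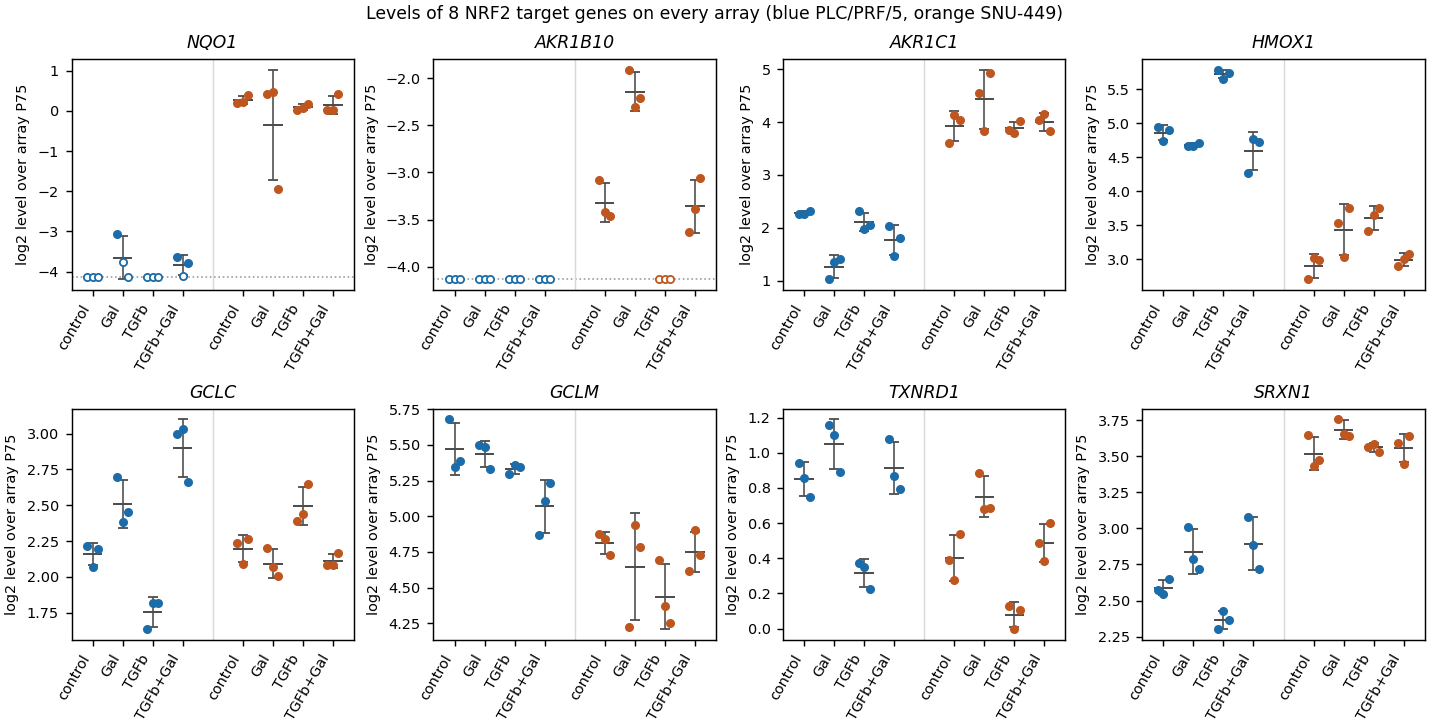
Log2 level over the 75th percentile of the array (P75, vertical axis) of 8 NRF2 target genes by line and treatment, with 3 arrays per group. Filled points were well above background and open points were not, bars are the mean ± SD, and the dotted line is the floor; HMOX1 was highest in all 3 TGFβ arrays of PLC/PRF/5, and AKR1B10 was at the floor in every PLC/PRF/5 array.

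The first comparison asked how the untreated lines differ. SNU-449 expressed more of the quinone reductase NQO1 and of the aldo-keto reductases AKR1B10 and AKR1C1, and less HMOX1, than PLC/PRF/5. Of the 8 members tested, 7 differed at an adjusted p under 0.05 (4 higher and 3 lower in SNU-449), where 68.5% of all 18105 genes tested did (34.4% higher and 34.1% lower). The higher ones include NQO1 and AKR1B10, whose PLC/PRF/5 controls were all at the floor. With that background, the count says little about the members, and the sizes carry the description.

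NQO1, which reduces quinones by 2 electrons and is a widely used readout of NRF2 activity, was above background in the controls of SNU-449 and not of PLC/PRF/5. Its SNU-449 control arrays stood at 0.20, 0.23 and 0.38, whereas all 3 PLC/PRF/5 control arrays were at the floor and not well above background. By the processed signal SNU-449 was thus at least 19.0-fold higher, set against the weakest signal each PLC/PRF/5 array could call. The floored difference was 4.41 on the log2 scale (limma adjusted p = 1.0e-08). The probe entered this test through the SNU-449 arrays, and the PLC/PRF/5 controls, all at the floor, had an SD of 0. The difference depended on the background setting, with 2.06 under normexp background correction and 5.23 in the series value table, and passed the test in each. In PLC/PRF/5 the probe passed background on 3 of 12 arrays, 1 of them with galunisertib alone and 2 with both agents, and was not tested for treatment effects.

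AKR1C1, a ketosteroid reductase, was at 3.61, 4.14 and 4.05 in SNU-449 controls and at 2.26, 2.25 and 2.32 in PLC/PRF/5 controls. Every SNU-449 array lay above every PLC/PRF/5 array. The difference was 1.65 ± 0.21 on the log2 scale (SE, n = 3 per line, limma adjusted p = 9.8e-07), and the second probe gave 1.15 ± 0.14. AKR1C2, a near-identical paralog of AKR1C1, had no probe assigned to it here, and how far either AKR1C1 probe also binds its transcript was not tested.

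AKR1B10, which reduces aldehydes and retinal, was at -3.08, -3.42 and -3.46 in SNU-449 controls and at the floor in PLC/PRF/5. SNU-449 was at least 1.58-fold higher, and the floored difference of 0.81 ± 0.12 had a limma adjusted p of 5.2e-06. As for NQO1, the probe entered this test through the SNU-449 arrays alone. The PLC/PRF/5 controls had an SD of 0 at the floor, so that p rests in part on the floor. With the floor raised to 150% of its value the difference shrank to 0.23 (limma adjusted p = 0.076), and the second probe gave 0.14 ± 0.16.

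HMOX1, which opens the haem ring to biliverdin, carbon monoxide and iron, went the other way. SNU-449 controls were at 2.71, 3.02 and 2.99 and PLC/PRF/5 controls at 4.94, 4.74 and 4.91. The groups were far apart, with SNU-449 3.88-fold lower (log2 difference -1.95 ± 0.15, limma adjusted p = 8.8e-10).

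The glutathione and thioredoxin members differed less. GCLC and GCLM, the catalytic and modifier subunits of the enzyme that starts glutathione synthesis, gave differences of 0.04 ± 0.11 (limma adjusted p = 0.757) and -0.65 ± 0.15 (limma adjusted p = 9.0e-04). The interval for GCLC ran from -0.18 to 0.26. SRXN1, which repairs overoxidized peroxiredoxins, was 0.93 ± 0.09 higher in SNU-449 (limma adjusted p = 3.3e-08), and TXNRD1, which reduces thioredoxin, was 0.45 lower (-0.45 ± 0.10, limma adjusted p = 5.0e-04). Scaling arrays to their median in place of the 75th percentile ended the calls for GCLM (-0.28, adjusted p = 0.154) and TXNRD1 (-0.08, adjusted p = 0.760), and no scaling ended that for TXNRD1 (adjusted p = 0.134).

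The 59 other pathway genes were listed by function (regulators, glutathione, thioredoxin, NADPH, haem and iron, detoxification). Whether NRF2 sets the level of each was not tested. Of these genes, 56 were tested and 47 differed between the untreated lines, 23 higher and 24 lower in SNU-449. That is 83.9% of those tested, next to 68.5% of all genes (34.4% higher and 34.1% lower). Of 12 glutathione genes 8 were lower and 1 higher in SNU-449, and of 15 detoxification genes 9 were higher and 5 lower. Lower by more than 2-fold in SNU-449 were the glutathione-degrading enzyme CHAC1 (log2 difference -5.53), the cystine transporter SLC7A11 (-2.93), the transferases GSTA4 (-2.13) and GSTM3 (-1.79), and the peroxidase GPX2 (-1.87). NQO2 (-3.13), the sestrin SESN2 (-2.51), the bile conjugate exporter ABCC2 (-1.87), OSGIN1 (-1.17) and the small MAF gene MAFF (-1.16) were lower too. Higher in SNU-449 were the microsomal transferase MGST1 (at least 1216-fold), the reductases PTGR1 (at least 83.5-fold) and CBR3 (at least 53.8-fold), and AKR1B1 (log2 difference 2.14), with the first 3 not above background in PLC/PRF/5 controls. The exporters ABCC3 (5.66) and ABCC4 (4.91), the coactivator gene CREBBP (2.30), TKT (1.81) and ME1 (1.31) of NADPH supply, the kinase gene GSK3B (1.42) and MAFG (1.05) were also higher. The thioredoxin list had 3 of 6 higher and 1 lower, the haem and iron list 3 of 6 higher and 2 lower, the NADPH list 2 of 5 higher and 3 lower, and the regulators 5 of 12 in each direction.

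The second comparison asked what TGFβ does to the members in PLC/PRF/5. HMOX1 rose, and GCLC and TXNRD1 fell. These were 3 of the 6 members that could be tested in this line, where 13.3% of 16865 genes were called. With the replicate as a block, by which these arrays pair, 2 of 6 were called and GCLC was not. GCLM, SRXN1 and AKR1C1 did not pass the test.

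HMOX1 was at 4.94, 4.74 and 4.91 on the control arrays and at 5.78, 5.66 and 5.74 with TGFβ. All TGFβ arrays were above all controls, on each slide by 0.83 to 0.92. The rise was 0.86 ± 0.12 on the log2 scale, or 1.82-fold (limma adjusted p = 0.0013), and its call was lost without replicate 3 (adjusted p = 0.054). The array value is the average of the HMOX1 spots, and the TGFβ mean was above the control mean at 10 of 10 spots, by 0.79 to 1.01. These spots were read on the same arrays and are not replicates of the treatment, here or in the comparisons below. The SD between spots of 1 array had a median of 0.097 over the 24 arrays.

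**Figure D2:**
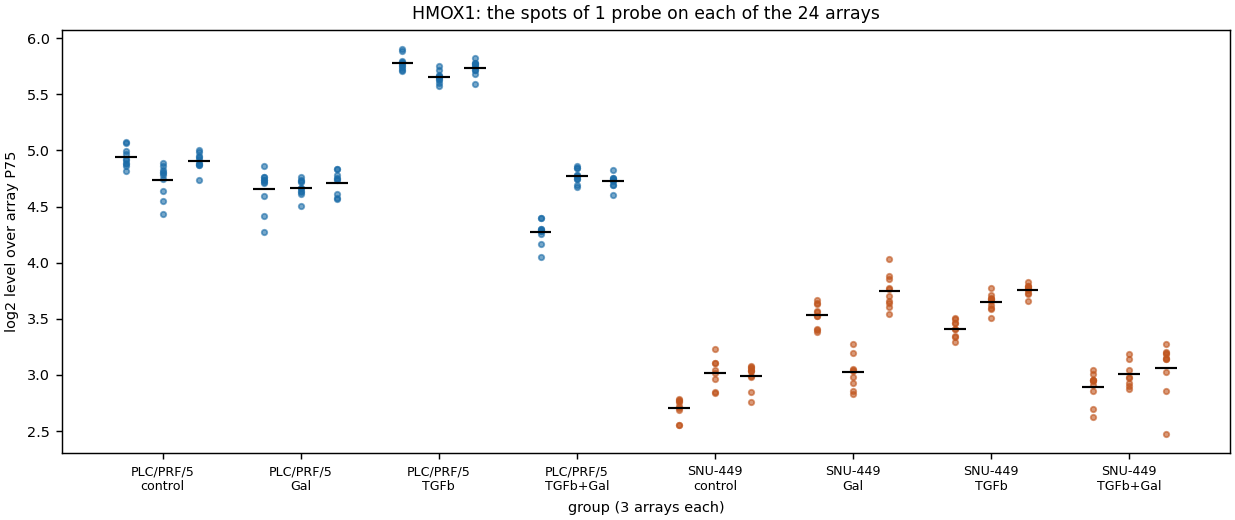
Log2 level over the 75th percentile of the array (P75, vertical axis) of the unflagged HMOX1 spots on each array, grouped by line and treatment along the horizontal axis; black bars are array means. The PLC/PRF/5 TGFβ arrays form the highest group, with spots from 5.58 to 5.90, and the SNU-449 TGFβ arrays lie above the SNU-449 controls.

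TXNRD1 was at 0.94, 0.86 and 0.75 on control arrays and at 0.37, 0.35 and 0.23 with TGFβ. The groups did not overlap, and the gene fell by 0.53 on the log2 scale (SE 0.10, limma adjusted p = 0.0065). This call was lost without replicate 2 or replicate 3, with an adjusted p of up to 0.130, under scaling to the array median (0.206) and with no scaling (0.644). The TXNRD1 probe was designed on 1 of several transcripts of the gene.

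GCLC was at 2.21, 2.07 and 2.19 on control arrays and at 1.64, 1.81 and 1.82 with TGFβ. It was lower on every TGFβ array, but the change of -0.40 ± 0.12 sat close to the threshold (limma adjusted p = 0.0469). With the replicate as a block the adjusted p was 0.067, and leaving out any replicate gave 0.169 to 0.222. Scaling to the median (0.501), no scaling (0.821), no filter on dim probes (0.107), the series value table (0.069) and the methods' t-test (0.055) also ended this call.

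The members that did not pass were narrow in range. SRXN1 was at 2.57, 2.55 and 2.65 without and at 2.30, 2.43 and 2.37 with TGFβ, which gave -0.22 ± 0.11 (limma adjusted p = 0.201). Its 3 TGFβ arrays lay below its controls. GCLM changed by -0.14 (interval -0.39 to 0.11) and AKR1C1 by -0.17 (interval -0.50 to 0.17).

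The third comparison asked what galunisertib alone does in PLC/PRF/5. AKR1C1 fell about 2-fold, as 1 of 6 members to pass, where 5.33% of genes were called. AKR1C1 was at 2.26, 2.25 and 2.32 on control arrays and at 1.02, 1.36 and 1.41 with galunisertib. The groups were well apart, and the fall was 2.02-fold (log2 change -1.02 ± 0.15, limma adjusted p = 0.0055). The second AKR1C1 probe, printed inside the array where the first lay near its edge, fell by 0.89 on the log2 scale (SE 0.14, limma adjusted p over all probes = 0.0095). Without replicate 1, 2 or 3 in turn the change was between -1.08 and -0.90 with an adjusted p of 0.052 to 0.151, and median scaling (0.052), no scaling (0.122) and the methods' t-test (0.067) also ended the call.

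The other 5 members gave values that did not pass under galunisertib. GCLC was at 2.70, 2.38 and 2.45 against 2.21, 2.07 and 2.19 in controls, higher on every array (0.35 ± 0.12, limma adjusted p = 0.110). SRXN1 gave 0.25 ± 0.11 (adjusted p = 0.188 by limma), TXNRD1 0.20 ± 0.10 (adjusted p = 0.270 by limma), GCLM -0.03 ± 0.11 and HMOX1 -0.18 ± 0.12.

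The fourth comparison set both agents against TGFβ alone in PLC/PRF/5. HMOX1 fell, and GCLC, TXNRD1 and SRXN1 rose, so that 4 of 6 members were called against 38.9% of all genes. GCLC and HMOX1 were past 2-fold, in opposite directions. This comparison and that of TGFβ with control share the TGFβ arrays, so the values are given side by side and opposite signs in them are not independent.

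GCLC was at 3.00, 3.03 and 2.66 with both agents and at 1.64, 1.81 and 1.82 with TGFβ. The rise was 2.21-fold (1.14 ± 0.12 on the log2 scale, limma adjusted p = 6.0e-05), and with both agents every array lay above every control array as well, the highest of which was at 2.21. HMOX1 was at 4.28, 4.78 and 4.73 with both agents and at 5.78, 5.66 and 5.74 with TGFβ. It was 2.19-fold lower with both agents (-1.13 ± 0.12, limma adjusted p = 7.4e-05), and lower at 10 of 10 spots. These calls held under every alternative run.

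TXNRD1 was at 1.08, 0.87 and 0.80 with both agents, above all TGFβ arrays, and rose by 0.60 ± 0.10 (limma adjusted p = 0.0011). SRXN1 was at 3.08, 2.88 and 2.72 with both agents against 2.30, 2.43 and 2.37 with TGFβ, a rise of 0.53 ± 0.11 (limma adjusted p = 0.0028). Neither pair of groups overlapped, and both calls were lost with no scaling between arrays (adjusted p = 0.157 and 0.248 by limma). GCLM was at 4.87, 5.10 and 5.23 with both agents and at 5.29, 5.36 and 5.35 with TGFβ, a difference of -0.26 ± 0.11 that did not pass (limma adjusted p = 0.0907). GCLC and GCLM, the subunits of 1 enzyme, thus gave fold changes of opposite sign here, and only that of GCLC passed. AKR1C1 gave -0.35 ± 0.15 (limma adjusted p = 0.0971), and its second probe -0.50 ± 0.14 (limma adjusted p over all probes = 0.0193). Both GCLM and AKR1C1 passed as lower under quantile normalization (-0.49 and -0.47, adjusted p = 0.011 and 0.032 by limma) and when the 75th percentile was that of the probes detected on every array (-0.44 and -0.52, adjusted p = 0.021 and 0.017 by limma), and AKR1C1 also with the mean of its probes (adjusted p = 0.029).

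**Figure D3:**
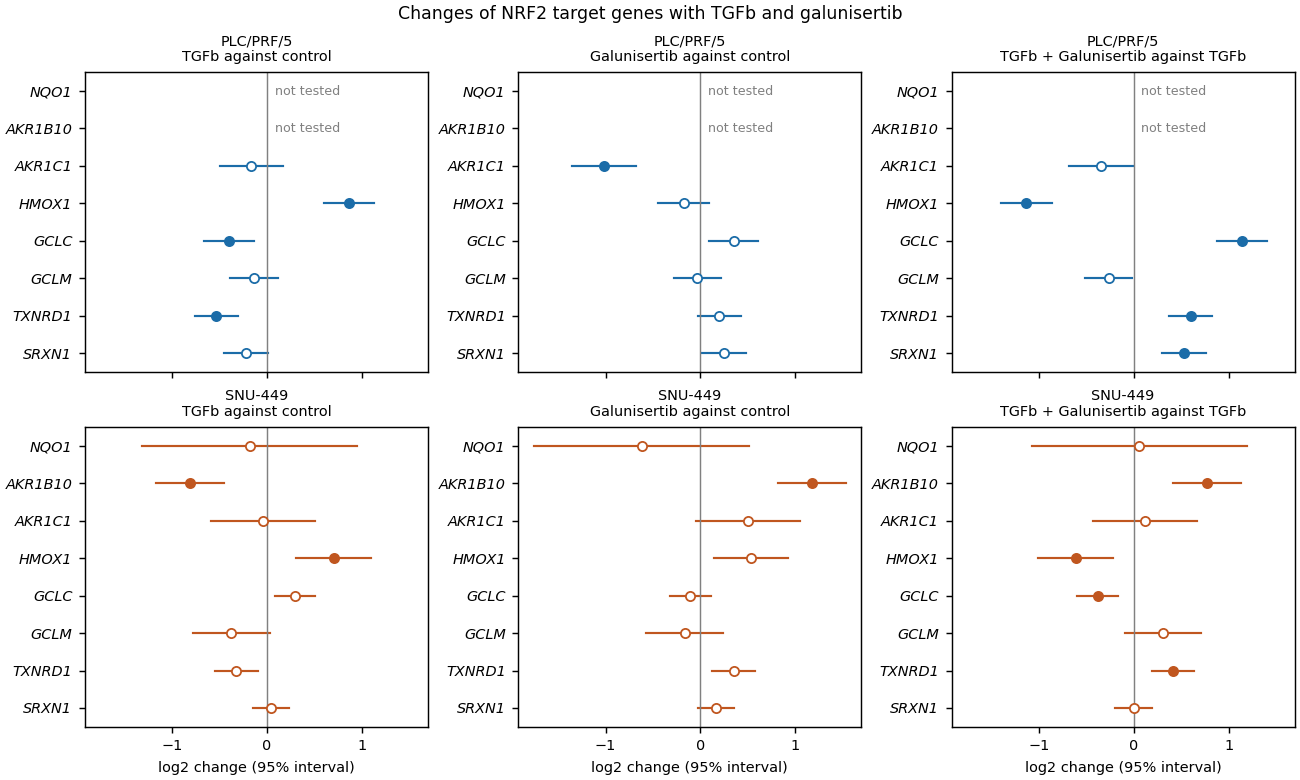
Log2 change (horizontal axis) with its 95% confidence interval for 8 NRF2 target genes in 6 comparisons, with PLC/PRF/5 in the upper row and SNU-449 in the lower row. Filled points have a limma adjusted p under 0.05; HMOX1 was higher with TGFβ in both lines, and GCLC with both agents against TGFβ alone was 1.14 in PLC/PRF/5 and -0.38 in SNU-449.

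In SNU-449, TGFβ raised HMOX1 and lowered AKR1B10, 2 of the 8 members tested, where 10.4% of 16227 genes were called. HMOX1 was at 2.71, 3.02 and 2.99 on control arrays and at 3.41, 3.65 and 3.76 with TGFβ. The groups did not overlap, and the rise was 0.70 ± 0.18 on the log2 scale, or 1.63-fold (limma adjusted p = 0.031). The TGFβ mean was higher at 10 of 10 spots, by 0.58 to 1.00. The call was lost without any 1 replicate (adjusted p of 0.096 to 0.176), with median scaling (0.099), with no filter on dim probes (0.088), in the series value table (0.066) and by the methods' t-test (0.068).

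AKR1B10 was at -3.08, -3.42 and -3.46 on SNU-449 control arrays and on none of the 3 TGFβ arrays well above background. The floored change was -0.81 ± 0.16 (limma adjusted p = 0.0090), or 1.76-fold between the group means. Set against the weakest signal that each TGFβ array could call, a mean level of -4.34 that lies under the common floor of -4.13, it was at least 2.03-fold lower with TGFβ. The second probe passed background on 1 control array and on no TGFβ array (-0.14 ± 0.22). The call was lost without replicate 2 or replicate 3 (adjusted p of up to 0.124), with the mean of both probes (0.076) and with the floor at 150%, where the change was -0.23 (0.410).

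The other members in SNU-449 with TGFβ did not pass. TXNRD1 was at 0.13, -0.0029 and 0.11 with TGFβ, below its controls at 0.39, 0.27 and 0.54 (-0.32 ± 0.10, limma adjusted p = 0.071). GCLC was at 2.39, 2.44 and 2.65, above its controls at 2.24, 2.09 and 2.26 (0.30 ± 0.10, limma adjusted p = 0.081). Neither pair of groups overlapped. TXNRD1 passed with the 75th percentile of those detected probes (adjusted p = 0.021), with normexp (0.031) and in a fit of all 24 arrays (0.032). GCLM gave -0.38 ± 0.18, NQO1 -0.19 ± 0.51, SRXN1 0.04 ± 0.09 and AKR1C1 -0.05 ± 0.25. GCLM and NQO1 were also lower with TGFβ on all 3 slides, without overlap of the groups. Their SEs take in the spread of the galunisertib arrays, with SDs of 0.38 and 1.37. The SDs were 0.08 and 0.10 in controls and 0.23 and 0.07 with TGFβ.

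Galunisertib alone raised AKR1B10 in SNU-449, 1 of 8 members, where 7.28% of genes were called. AKR1B10 was at -1.91, -2.31 and -2.21 with galunisertib and at -3.08, -3.42 and -3.46 without. Every galunisertib array was above every control, and the rise was 2.26-fold (1.17 ± 0.16 on the log2 scale, limma adjusted p = 0.0026). The second probe rose by 1.11 ± 0.22 (limma adjusted p over all probes = 0.0174), raising the floor to 150% left the change at 1.17, and normexp background correction reduced it to 0.47 (adjusted p = 0.012). The call was lost without replicate 2 or replicate 3 (adjusted p of up to 0.068) and by the methods' t-test (0.093).

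Other SNU-449 members shifted under galunisertib without passing. TXNRD1 was at 0.88, 0.68 and 0.69, above its controls (0.35 ± 0.10, limma adjusted p = 0.064), and passed with normexp (0.029) and in a fit of all 24 arrays (0.024). HMOX1 was at 3.53, 3.03 and 3.75, with replicate 2 next to the highest control (0.53 ± 0.18, limma adjusted p = 0.098, and 0.028 in the fit of all 24 arrays). AKR1C1 gave 0.50 ± 0.25 (adjusted p = 0.238 by limma). NQO1 was at 0.42 and 0.47 on 2 galunisertib arrays and at -1.93 on that of replicate 3, a single spot with 52.3 intensity units, and its change of -0.62 ± 0.51 rests on that spot.

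With both agents against TGFβ alone in SNU-449, AKR1B10 and TXNRD1 rose and HMOX1 and GCLC fell. These were 4 of 8 members, where 17.1% of genes were called, and the comparison again shares the TGFβ arrays with the one before. HMOX1 was at 2.90, 3.01 and 3.08 with both agents, below 3.41, 3.65 and 3.76 with TGFβ (-0.61 ± 0.18, limma adjusted p = 0.038). GCLC was at 2.08, 2.09 and 2.17, below 2.39, 2.44 and 2.65 (-0.38 ± 0.10, limma adjusted p = 0.021). TXNRD1 was at 0.49, 0.38 and 0.60, above its TGFβ arrays (0.41 ± 0.10, limma adjusted p = 0.019). None of these groups overlapped.

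AKR1B10 was at -3.63, -3.38 and -3.06 with both agents in SNU-449, where the floored change from the TGFβ arrays was 0.77 ± 0.16 (limma adjusted p = 0.0079), or 1.71-fold. Against the weakest signal that each TGFβ array could call it was at least 1.97-fold higher. All 4 calls were lost with median scaling, with an adjusted p of 0.051 for AKR1B10, 0.075 for HMOX1, 0.144 for GCLC and 0.573 for TXNRD1. Those of HMOX1, GCLC and TXNRD1 were lost without any 1 replicate (adjusted p of 0.082 to 0.178), and that of AKR1B10 without replicate 2 or 3 (up to 0.123), with the mean of both probes (0.068), by the methods' t-test (0.053) and with the raised floor (0.388). No filter on dim probes (0.103) and the series value table (0.085) ended the call of HMOX1, the methods' t-test (0.056) that of GCLC, and no scaling (0.376) that of TXNRD1. NQO1, GCLM, SRXN1 and AKR1C1 gave 0.06 ± 0.51, 0.31 ± 0.18, -0.0019 ± 0.087 and 0.12 ± 0.25.

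The difference between the lines in each response was tested directly. For TGFβ, 2 of 8 members differed, where 8.59% of genes did. The GCLC response was 0.70 ± 0.15 higher in SNU-449 (limma adjusted p = 0.0049), being higher than control on all 3 slides in SNU-449 and lower on all 3 in PLC/PRF/5. HMOX1 rose in both lines, and its difference of -0.16 ± 0.22 had an interval of -0.62 to 0.30 (limma adjusted p = 0.758). For galunisertib alone, 2 of 8 members differed against 5.82% of genes. AKR1C1 differed by 1.52 ± 0.30 (limma adjusted p = 0.0043), with 1.25 ± 0.20 from its second probe. AKR1B10 differed for both agents (-0.81 for TGFβ and 1.17 for galunisertib), but its PLC/PRF/5 arrays were all at the floor, so that these repeat the SNU-449 changes. The AKR1B10 difference for TGFβ lost its call in 7 of 14 alternatives (adjusted p of up to 0.596, under normexp, and -0.23 with the raised floor, adjusted p = 0.449). That for galunisertib lost it in 2 of 14, with 0.46 under normexp (adjusted p = 0.165) and in the series value table (adjusted p = 0.468). The normexp offset by itself shrinks both AKR1B10 differences. Leaving out any replicate ended the GCLC call (adjusted p of 0.054 to 0.090), and leaving out replicate 1 or 3 ended that of AKR1C1 (up to 0.160). Median scaling and no scaling ended both, with 0.237 and 0.486 for GCLC and 0.061 and 0.090 for AKR1C1.

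HMOX1 had the largest root mean square change from control (0.52 on the log2 scale over 3 treatments in each of 2 lines) of the 6 members tested in both lines. The 3 genes of 14920 whose 6 changes lay closest to those of HMOX1 were CFAP206 (root mean square difference 0.113), HAPLN3 (0.197) and JHY (0.201). With TGFβ, the CFAP206 change was 0.90 in PLC/PRF/5 cells and 0.57 in SNU-449 cells, next to 0.86 and 0.70 for HMOX1. That likeness follows from the way CFAP206 was chosen. The 3 treatments of a line share its control arrays.

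The 59 other pathway genes were followed through the same treatments. In PLC/PRF/5 with TGFβ, 9 of the 53 tested fell and 0 rose, where 7.12% of all genes fell and 6.21% rose. The 9 spanned the glutathione (3 of 11), thioredoxin (2 of 6), detoxification (2 of 13), NADPH (1 of 5) and regulator (1 of 12) lists. TXNIP, which binds and inhibits thioredoxin, fell from a mean of -2.22 ± 0.17 to -3.14 ± 0.08 (log2 change -0.92 ± 0.15, limma adjusted p = 0.0031), and MAFF from 1.59 ± 0.07 to 0.78 ± 0.13 (-0.80 ± 0.12, limma adjusted p = 0.0021). With both agents against TGFβ alone in PLC/PRF/5, 21 of 53 rose and 2 fell, where 25.5% of all genes rose and 13.3% fell. Over all genes 4305 rose and 2249 fell here, against 3269 and 690 with median scaling and 448 and 562 with no scaling. Those 21 were 5 of 13 detoxification genes, 4 of 11 glutathione genes, 4 of 12 regulators, 4 of 6 thioredoxin genes, 3 of 5 NADPH genes and 1 of 6 haem and iron genes. TXNIP rose by 1.34 ± 0.15 (limma adjusted p = 1.0e-04) and SLC7A11 by 1.04 ± 0.09 (limma adjusted p = 1.8e-05), while GGT1, which breaks down extracellular glutathione, fell by 0.42 and the haem transporter gene SLC48A1 by 0.36. With galunisertib alone in PLC/PRF/5, 5 of 53 rose and 1 fell, where 3.6% of all genes rose and 1.73% fell. MAFK (0.62 ± 0.16) and CHAC1 (0.50 ± 0.10) led the rises, and AKR1C3, another aldo-keto reductase, fell by 0.60 (limma adjusted p = 0.045).

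In SNU-449 the exporter gene ABCC2 had, of these 59 genes, the largest change called in each of the 3 treatment comparisons. Its mean was 1.86 ± 0.10 in control arrays, 0.01 ± 0.12 with TGFβ, 2.84 ± 0.19 with galunisertib and 2.36 ± 0.10 with both agents (SD, n = 3). TGFβ lowered it by 1.85 on the log2 scale (-1.85 ± 0.11, limma adjusted p = 7.3e-06), galunisertib raised it (0.98 ± 0.11, limma adjusted p = 0.0011), and it was 2.35 ± 0.11 higher with both agents than with TGFβ (limma adjusted p = 1.2e-06). With TGFβ, 3 of 56 pathway genes rose, CHAC1 (0.59 ± 0.15) and ME1 (0.47 ± 0.11) most, and 3 fell, where 5.67% of all genes rose and 4.74% fell. With galunisertib alone 5 rose and 0 fell, where 5.23% and 2.06% did, with GSTA4 (0.54 ± 0.14) next after ABCC2. With both agents against TGFβ alone 4 rose and 4 fell, where 9.77% and 7.31% did, and CHAC1 fell by 1.18 (-1.18 ± 0.15, limma adjusted p = 4.8e-04).

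**Figure D4:**
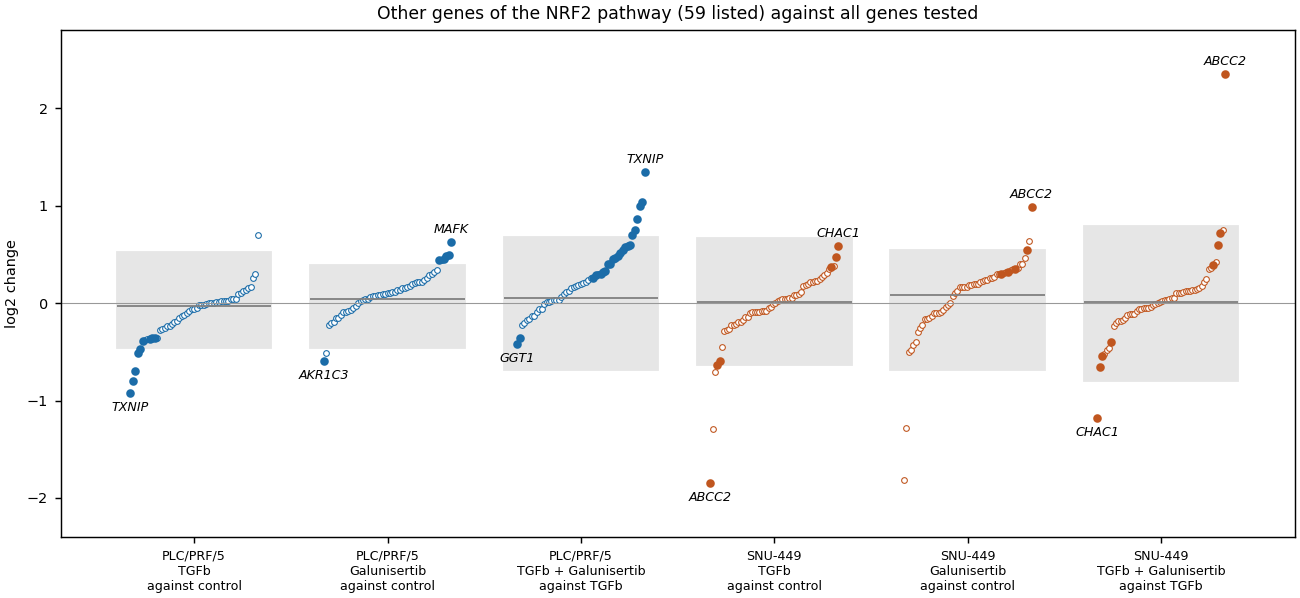
Log2 change (vertical axis) of the pathway genes tested, sorted within each of 6 comparisons along the horizontal axis, out of 59 listed. Filled points have a limma adjusted p under 0.05. Grey boxes span the 5th to 95th percentile of all genes tested, and their line is the median. The ABCC2 changes in SNU-449 lay outside the boxes. Of the 21 rises with both agents in PLC/PRF/5, some lay above their box (such as TXNIP) and others within it (such as NFE2L1).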

How the data were processed

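Per the labels and the methods, RNA was Cy3-labeled and hybridized to one-colour arrays, and the authors deposited the output of Agilent Feature Extraction 10.7.3.1 for each array. The deposited processed signal is a linear intensity, from which the authors' software had subtracted background and spatial trends within each array. A second file from the authors, a table of deposited log2 values, served as an alternative. On 19267 probes its differences between arrays correlated at 0.999 with those computed here (slope 1.00), each probe being centred, and its column medians ran from -0.057 to 0.057.

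Control spots and spots flagged as outliers (111 to 216 per array, 8 of them HMOX1 spots) were left out, 0 were saturated, and spots of a probe were averaged. Values were divided by the 75th percentile of the array, floored at the weakest signal called well above background (the median of this over arrays), and log2 transformed. Of the probes, 31104 were named through RefSeq accessions, 10719 through LNCipedia names in the files, and 16378 had no name. A probe entered a fit if all arrays of 1 or more of its groups called it well above background, and a gene was represented by its brightest such probe.

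Groups were compared with limma 3.58.1 (R 4.3.3), on the 12 arrays of a line for treatments and on all 24 arrays between lines, with Benjamini-Hochberg adjustment over all genes tested and a threshold of 0.05. The script was tested on simulated data. Precision is limited by the 3 arrays in each group. Same-numbered arrays of control and TGFβ deviated together in both lines (r from 0.13 to 0.22 in SNU-449 and from 0.17 to 0.30 in PLC/PRF/5, across genes). These were taken as paired by slide, and no other comparison was. The others had a lowest r between -0.028 and 0.098, although all same-numbered arrays shared a slide. Both agents against TGFβ in SNU-449, with r from 0.098 to 0.27, came close to the paired values. Values are from the fit without the block, as planned, and blocked values are given where they change a call. The members and gene lists were chosen with earlier results of these data known. All members are named, and other pathway genes are named, in each direction of a comparison, where past 2-fold with P under 0.001 or else as the up to 2 largest changes called. Alternatives were other scalings, normexp with an offset of 50 (on the median signals, since the planned mean signals were not used here), other floors, filters and probe choices, a plain t-test, a replicate block and leaving out each replicate. The normexp offset shrinks changes of dim probes. The plain t-test pools the variance of the 2 groups compared, without the random variance model of the methods, for which limma's moderated test stands in.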

Additional observations from a re-analysis of the deposited data

Results flagged for a closer look

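The responses of GCLC and AKR1C1 differed between PLC/PRF/5 and SNU-449 in a test of the difference itself. The TGFβ effect on GCLC was 0.70 higher on the log2 scale in SNU-449 (0.30 there, -0.40 in PLC/PRF/5). The galunisertib effect on AKR1C1 was 1.52 higher in SNU-449 (0.50 there, -1.02 in PLC/PRF/5). For AKR1B10 the difference passed the test too, at -0.81 for TGFβ and 1.17 for galunisertib. All its PLC/PRF/5 arrays were at the floor, so its response in that line was not measured. No group had enough arrays for a check of single arrays that stand apart.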

How the results depend on the processing

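Of 425 values of the 26 called changes of members under alternatives, 345 kept their direction and call, 80 kept only their direction, and 0 reversed. With 3 arrays per group, leaving out 1 replicate leaves few arrays, and calls near the threshold did not hold. The calls for GCLC and HMOX1 with both agents against TGFβ in PLC/PRF/5, and the differences between untreated lines for NQO1, HMOX1, SRXN1 and AKR1C1, held under every alternative run. Members near background (AKR1B10, and NQO1 in PLC/PRF/5) depend on the floor. The cause of the other changes was not tested.

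Counts of members called moved as follows by limma, except where the t-test is named. Median scaling gave 1 for TGFβ in SNU-449, 1 for TGFβ in PLC/PRF/5, 0 for galunisertib in PLC/PRF/5 (2 at an unadjusted p under 0.05), 0 for both agents against TGFβ in SNU-449 (3 unadjusted), and 0 and 1 for the differences between lines with TGFβ (2 unadjusted) and galunisertib. No scaling gave 1 for TGFβ and 0 for galunisertib (1 unadjusted) in PLC/PRF/5, 2 for both agents against TGFβ there, and 0 and 1 for those differences (1 unadjusted for TGFβ). Normexp gave 1 and 1 for the differences and 2 for galunisertib in SNU-449. Probes well above background on all arrays gave 1 and 1 for the differences, and in SNU-449 1 for TGFβ and 0 for galunisertib (2 unadjusted). The series table gave 1 and 1 for the differences and 1 for TGFβ in SNU-449. The mean of all probes and the floor at 150% (chosen after seeing the data) each gave 1 for the TGFβ difference and 1 for TGFβ in SNU-449, as did no filter on dim probes for the latter. The plain t-test, after Benjamini-Hochberg adjustment, gave 0 for galunisertib in either line (2 unadjusted in each), 2 for both agents against TGFβ and 1 for TGFβ in SNU-449. At the methods' threshold (2-fold, P under 0.001) it called 3 members between untreated lines, 1 with both agents against TGFβ in PLC/PRF/5, and 0 elsewhere. A fit of all 24 arrays gave 3 for galunisertib in SNU-449.

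Without replicate 1, 2 or 3 the counts ranged from 0 to 1 for TGFβ, 0 to 1 for galunisertib and 0 to 2 for both agents against TGFβ in SNU-449, from 0 to 2 for TGFβ and 0 to 0 for galunisertib in PLC/PRF/5 (1 to 3 unadjusted), and from 0 to 1 and 1 to 2 for the differences between lines with TGFβ and galunisertib (2 to 4 unadjusted where another count was 0). The replicate block moved GCLC with TGFβ in PLC/PRF/5 to an adjusted p of 0.067, ended no other call of a member, and called the HMOX1 difference between lines with galunisertib (0.71, adjusted p = 0.049 against 0.066). HMOX1 without its outer-column spot, also chosen after seeing the data, kept all its calls. The share of all calls that were higher depended on the scaling. With the 75th percentile, the median and no scaling it was 50.2%, 66.7% and 55.2% between untreated lines, 54.5%, 71.4% and 75.1% for TGFβ, 71.7%, 48.7% and 29.6% for galunisertib, and 57.2%, 32.5% and 30.5% for both agents against TGFβ in SNU-449. In PLC/PRF/5 it was 46.6%, 66.8% and 92.7% for TGFβ and 65.7%, 82.6% and 44.4% for both agents against TGFβ. For galunisertib in PLC/PRF/5 it was 67.5% with the 75th percentile and 48.6% with no scaling, and the median moved it by less than 10 points. The 75th percentile over probes well above background gave 40.8% for galunisertib and 39.3% for both agents against TGFβ in PLC/PRF/5 and 57.9% for galunisertib in SNU-449, and quantile normalization gave 55.4% for both agents against TGFβ in PLC/PRF/5. The median change of all genes was within 0.09 of 0 in each comparison with the 75th percentile. It reached 0.27 between untreated lines and 0.23 for both agents against TGFβ in PLC/PRF/5 with median scaling, and 0.21 for TGFβ in PLC/PRF/5 with no scaling.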

Other observations

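Other pathway genes also responded differently in the 2 lines. For TGFβ, 7 of 56 differed (8.59% of all genes did). CHAC1 (0.95 ± 0.18, limma adjusted p = 0.0017) and SLC7A11 (0.74 ± 0.20, limma adjusted p = 0.022) were higher, and ABCC2 was lower (-1.15 ± 0.13), although it fell in both lines. KEAP1, named here after its values were seen, rose by 0.37 ± 0.08 with TGFβ in SNU-449 (limma adjusted p = 0.019), from a mean of 2.28 ± 0.03 to 2.65 ± 0.03, and its response was 0.37 ± 0.11 higher there than in PLC/PRF/5 (limma adjusted p = 0.033). For galunisertib alone, 4 of 56 differed (5.82% of all genes did), with CHAC1 (-0.98 ± 0.18) and SLC3A2 (-0.95 ± 0.26), the partner of SLC7A11, lower in SNU-449 and ABCC2 higher (0.74 ± 0.13).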
